A study of Homo sapiens with 4 samples.

Results

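BRD8 is 1 of the 33538 genes in the deposited count matrix, found by its symbol (identifier ENSG00000112983), and it is followed here through single cells of BT474, a line of breast cancer origin with estrogen receptor and with extra copies of HER2. It was measured in 15169 cells, which held 14501 BRD8 UMIs in all. A UMI, or unique molecular identifier, marks an RNA molecule once, so UMIs count molecules and not PCR copies.

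The cells were treated for 4 h, and each group was 1 library of 3' single-cell RNA-seq. Fulvestrant at 100 nM, which blocks the estrogen receptor and leads to its breakdown, gave 3485 cells. Neratinib at 200 nM, an irreversible inhibitor of the HER2 family kinases, gave 3507 cells. Both drugs together gave 3876 cells, and the vehicle DMSO gave 4301 cells. A barcode counted as a cell with at least 5000 UMIs and at least 500 genes. With 1 library of 1 cell line in each group there was no replicate, so no difference between libraries was tested. Intervals in square brackets are 95% intervals that cover counting error only.

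Cells held a median of 23010 UMIs with fulvestrant, 22247 with neratinib, 22007 with both drugs and 22565 with DMSO. Mitochondrial transcripts made up a median of 16.7%, 21.1%, 21.1% and 16.2% of a cell's UMIs in the same order, so both neratinib libraries stood apart in this measure. The cells carried luminal breast markers in every library: ERBB2 summed to 79032 UMIs or more and KRT8 to 79144 or more. ESR1, the lowest of the 8 luminal markers read, had 999 to 1512 UMIs. Of the 11 markers of other cells, COL1A2, PDGFRB and CD3E were at 0 UMIs in all 4 libraries and PTPRC, KRT5 and KRT14 had at most 1 UMI in any library. VIM and COL1A1 were present, VIM with 3774 to 4962 UMIs and COL1A1 with 885 to 1177. At lower counts, VWF had 157 to 206 UMIs and CD68 had 52 to 66 in the 4 libraries. PECAM1 had at most 2 UMIs in any library. There were 23 cell barcode sequences that occurred in more than 1 library, and the ratios of BRD8 without those cells are given with the levels.

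BRD8 encodes a bromodomain protein, a reader of acetylated histones, and is a subunit of the TIP60 complex. That complex acetylates histones through KAT5 and exchanges histone variants through EP400, and it takes part in transcription and in DNA repair. The gene lies on the minus strand of chromosome 5 and stands head to head with KIF20A, which encodes a kinesin motor needed for late mitosis and cytokinesis. KIF20A is a classical gene of G2 and mitosis, so the pair allows the cell cycle pattern of BRD8 to be read beside that of its nearest divergent neighbour.

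The promoter windows of both genes are shown because they lie side by side. They are RefSeq sequences of build GRCh38.p14, each covering 250 bases before to 50 bases after the start site. The BRD8 window is chr5:138178581-138178880 on the minus strand and the KIF20A window is chr5:138178862-138179161 on the plus strand. The start sites are 482 bases apart. Each sequence is read 5′ to 3′ on its own strand, and the capitals mark the 19 bases that both windows contain, on opposite strands.
BRD8: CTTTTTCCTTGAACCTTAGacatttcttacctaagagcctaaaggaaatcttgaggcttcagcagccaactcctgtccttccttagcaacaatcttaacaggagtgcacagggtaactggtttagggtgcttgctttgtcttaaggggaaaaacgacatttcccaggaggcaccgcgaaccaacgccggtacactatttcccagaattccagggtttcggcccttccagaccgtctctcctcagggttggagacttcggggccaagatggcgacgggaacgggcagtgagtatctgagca
KIF20A: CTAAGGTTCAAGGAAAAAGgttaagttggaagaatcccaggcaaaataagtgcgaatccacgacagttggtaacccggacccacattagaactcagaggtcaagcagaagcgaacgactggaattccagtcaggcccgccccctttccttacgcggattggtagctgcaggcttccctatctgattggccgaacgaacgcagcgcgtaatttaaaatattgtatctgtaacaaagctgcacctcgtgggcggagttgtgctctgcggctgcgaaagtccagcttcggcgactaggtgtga

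The windows were searched on both strands for motifs known from cell cycle promoters and for a forkhead motif, the kind bound by FOXO factors. The letters CCAAT did not occur in the BRD8 window and occurred at 2 places in the KIF20A window, and 34.6% of 35116 RefSeq windows of the same length hold them. The motif TTTGAA occurred in neither window (15.2% of all windows), while TTTAAA occurred at 1 place in the KIF20A window and not in that of BRD8 (12.2% of all windows). The forkhead motif GTAAACA occurred in neither window, and 3.42% of all windows hold it. These matches describe letters in a short window and say nothing about which factors bind there.

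BRD8 RNA was about 2.5 times as abundant in the neratinib libraries as in their partners without neratinib, and fulvestrant made little difference to it. Summed over cells, BRD8 had 1867 UMIs with fulvestrant, 4889 with neratinib, 5353 with both drugs and 2392 with DMSO. Scaled to the total of each library (CPM), the levels were 22.3 [21.3, 23.4] CPM with fulvestrant, 58.9 [57.3, 60.6] with neratinib, 58.8 [57.2, 60.4] with both drugs and 23.3 [22.4, 24.3] with DMSO. The 2 libraries with neratinib were thus the high ones, and neither their intervals nor those of the 2 low libraries overlapped across that divide.

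The log2 ratio of neratinib over DMSO was 1.34 [1.27, 1.41], a 2.53-fold difference, and that of both drugs over fulvestrant, a pair that shares no library with it, was 1.40 [1.32, 1.47], a 2.63-fold difference. For fulvestrant over DMSO the log2 ratio was -0.06 [-0.15, 0.02] and for both drugs over neratinib it was -0.00 [-0.06, 0.05]. Without the cells whose barcode sequence occurred in another library the 4 log2 ratios were 1.34, 1.40, -0.07 and -0.00 in that order. Among the 4945 genes with a mean of at least 20 CPM over the libraries, BRD8 ranked 17 from the top for neratinib over DMSO and 15 for both drugs over fulvestrant. Genes at least 1.25-fold higher with an interval off 0 made up 7.08% of those genes in the first of these pairs and 6.98% in the second, against 0.222% for fulvestrant over DMSO. The median gene had a log2 ratio of -0.18 in the first and -0.17 in the second, so the middle of the distribution lay below 0 where BRD8 lay above it. Directly above BRD8 for neratinib over DMSO stood ZBTB44 at 1.34, and directly below it stood FBXL20 at 1.33. The departure from additivity, log2 of both drugs minus log2 of each drug alone plus log2 of DMSO, was 0.06 [-0.04, 0.16] for BRD8.

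The difference was also spread over many cells. With neratinib 65.4% [63.8, 67.0] of cells held at least 1 BRD8 UMI and with both drugs 65.8% [64.2, 67.3] did, against 37.5% [35.9, 39.1] with fulvestrant and 38.3% [36.9, 39.8] with DMSO. After each cell was thinned at random to 5000 UMIs, which removes differences in depth, the shares were 10.2% [9.20, 11.2] with fulvestrant, 22.8% [21.4, 24.2] with neratinib, 24.6% [23.2, 26.0] with both drugs and 10.9% [9.94, 11.8] with DMSO. Thinned to 10000 UMIs they were 18.4%, 40.8%, 40.0% and 20.2% in the same order, with 191 to 254 shallower cells of each library left out. Both neratinib libraries stayed above the other 2 at either depth. A BT474 cell type that lacks BRD8 was not available as a background, so barcodes with at most 100 UMIs were used to read free RNA. Such a barcode carried a mean of 5.90, 5.14, 6.28 and 5.84 UMIs in the order fulvestrant, neratinib, both drugs and DMSO, at most 0.029% of the UMIs of a median cell.

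Most cells gave few BRD8 UMIs, and a small group gave many. With DMSO the share of cells with a BRD8 UMI was 10.9% at 5000 UMIs, 20.2% at 10000 and 38.3% unthinned. Cells without a BRD8 UMI may therefore still hold BRD8 RNA. A cell held at most 7 BRD8 UMIs with fulvestrant, 14 with neratinib, 13 with both drugs and 9 with DMSO. If every cell of a library drew BRD8 from the same fraction of its UMIs, counting error alone would leave 40.4%, 72.0%, 71.6% and 41.4% of cells with at least 1 UMI in that order. The measured shares were below those values in all 4 libraries, which means that the molecules were more unevenly spread than a single fraction gives. The other end of the distribution showed the same in the cells with at least 4 BRD8 UMIs. They numbered 35 with fulvestrant (1.00% against 0.361% for a single fraction) and 332 with neratinib (9.47% against 6.83%). There were 365 with both drugs (9.42% against 6.71%) and 63 with DMSO (1.46% against 0.429%). Thinned to 5000 UMIs, the share expected from the mean fraction was 9.91% with fulvestrant, 24.1% with neratinib, 24.2% with both drugs and 10.4% with DMSO. Each lay inside the interval of the measured thinned share, so the unevenness was not seen at that depth.

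**Figure D1:**
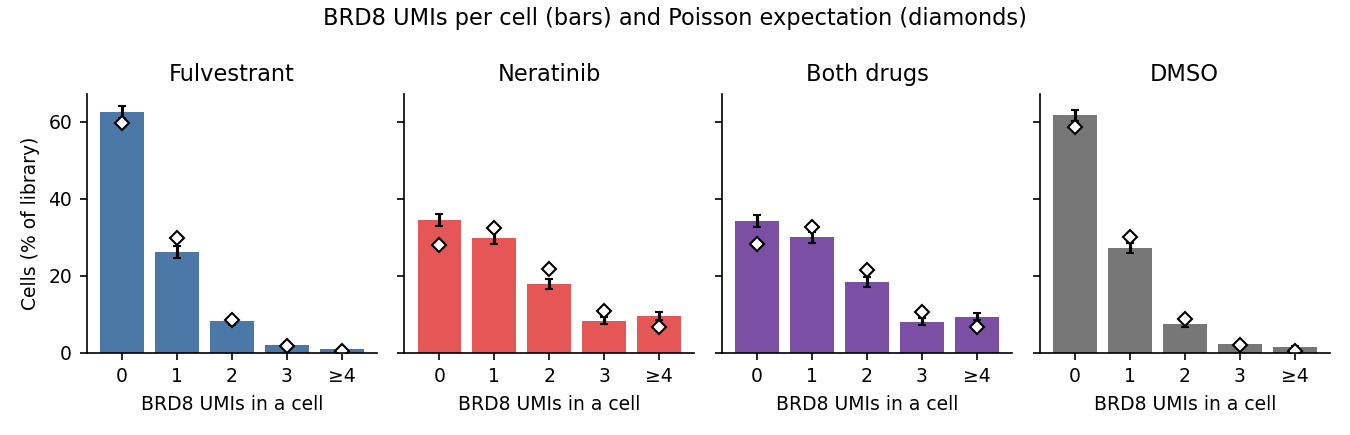
Share of cells (percent, vertical axis) by the number of BRD8 UMIs in a cell (horizontal axis) for fulvestrant, neratinib, both drugs and DMSO, as bars with 95% intervals, and as diamonds the share that counting error alone gives if every cell has the same BRD8 fraction. The bar at 0 and the bar at 4 or more lie above their diamonds in each of the 4 libraries.

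The cells rich in BRD8 were mostly those called G2M, the cells in G2 or mitosis by the expression of published marker lists that do not include BRD8. Of the cells with at least 4 BRD8 UMIs, G2M cells made up 82.9% with fulvestrant, 76.8% with neratinib, 74.8% with both drugs and 96.8% with DMSO. Of the cells without a BRD8 UMI, G2M cells made up 17.9%, 18.2%, 13.3% and 18.3%. G2M cells are also deeper, with a median of 30741 UMIs in the fulvestrant library against 20419 in G1 cells, so levels in CPM, which are relative to the UMIs of the cells, are given next.

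By phase, in the order G1, S and G2M, the BRD8 level with fulvestrant was 16.7 [15.4, 18.0], 19.2 [17.4, 21.2] and 32.8 [30.6, 35.1] CPM. With neratinib it was 45.8 [43.7, 48.0], 49.0 [45.3, 52.9] and 79.9 [76.8, 83.1] CPM, and with both drugs 47.8 [45.8, 49.9], 47.7 [44.5, 51.2] and 79.8 [76.7, 83.0] CPM. In DMSO cells it was 17.2 [16.0, 18.4], 16.8 [15.1, 18.6] and 35.6 [33.6, 37.6] CPM. In every library the interval for G2M lay above those of G1 and S. The G1 level in each neratinib library was above the G2M level of fulvestrant and of DMSO.

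The log2 ratio of G2M over G1 was 0.98 [0.83, 1.13] with fulvestrant, 0.80 [0.72, 0.89] with neratinib, 0.74 [0.65, 0.82] with both drugs and 1.05 [0.92, 1.18] with DMSO, which are folds of 1.97, 1.75, 1.67 and 2.07. BRD8 was among the genes at least 1.25-fold higher in G2M with an interval off 0, which made up 21.9%, 22.4%, 22.5% and 21.8% of the 4945 genes in the same order. Its rank among them from the top was 265, 343, 367 and 244. S over G1 was close to 0 with both drugs (-0.00 [-0.12, 0.12]) and with DMSO (-0.03 [-0.22, 0.15]). The largest value was that of fulvestrant, 0.21 [0.02, 0.39]. Thinning to 5000 UMIs left the pattern in place: the share of cells with BRD8 was 15.2% in G2M and 8.52% in G1 with fulvestrant, 30.9% in G2M and 19.3% in G1 with neratinib, 34.1% in G2M and 21.6% in G1 with both drugs, and 15.8% in G2M and 8.63% in G1 with DMSO. Phase was called from RNA alone and not checked against DNA content, and 8.81%, 10.1%, 10.9% and 7.88% of cells lay within 0.05 score units of a cut.

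**Figure D2:**
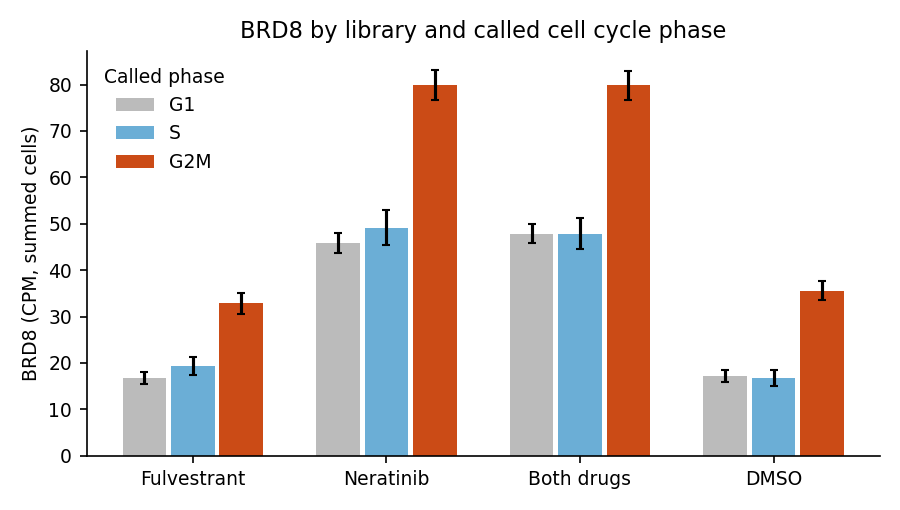
BRD8 level (CPM, vertical axis) in cells called G1, S and G2M in each library, with 95% counting intervals as bars. In each of the 4 libraries G2M is the highest phase, and the G1 levels with neratinib (45.8 CPM) and with both drugs (47.8 CPM) are above the G2M levels with fulvestrant (32.8 CPM) and DMSO (35.6 CPM).

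Along the G2M score, with the cells of each library in 10 bins of equal size, the BRD8 level stayed low and flat over most of the range and was highest at its top. With fulvestrant it lay between 15.3 and 17.6 CPM over the lower 7 bins and was 21.6, 28.4 and 43.3 CPM in the upper 3. With DMSO it lay between 14.8 and 18.8 CPM and then was 22.5, 29.7 and 48.1 CPM. The neratinib libraries showed the same upper end, 50.6, 70.6 and 112 CPM with neratinib and 47.9, 69.7 and 107 CPM with both drugs. Their lower end was not level: with neratinib BRD8 was 53.4 [48.2, 59.0] CPM in bin 1 and 38.2 [33.8, 43.0] CPM in bin 6. KIF20A followed the score far more sharply, with at most 1.16 CPM over the lower 5 bins of all 4 libraries and 73.4, 94.9, 98.7 and 77.6 CPM in the top bin of fulvestrant, neratinib, both drugs and DMSO. BRD8 thus kept a level outside G2M that its divergent neighbour did not.

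**Figure D3:**
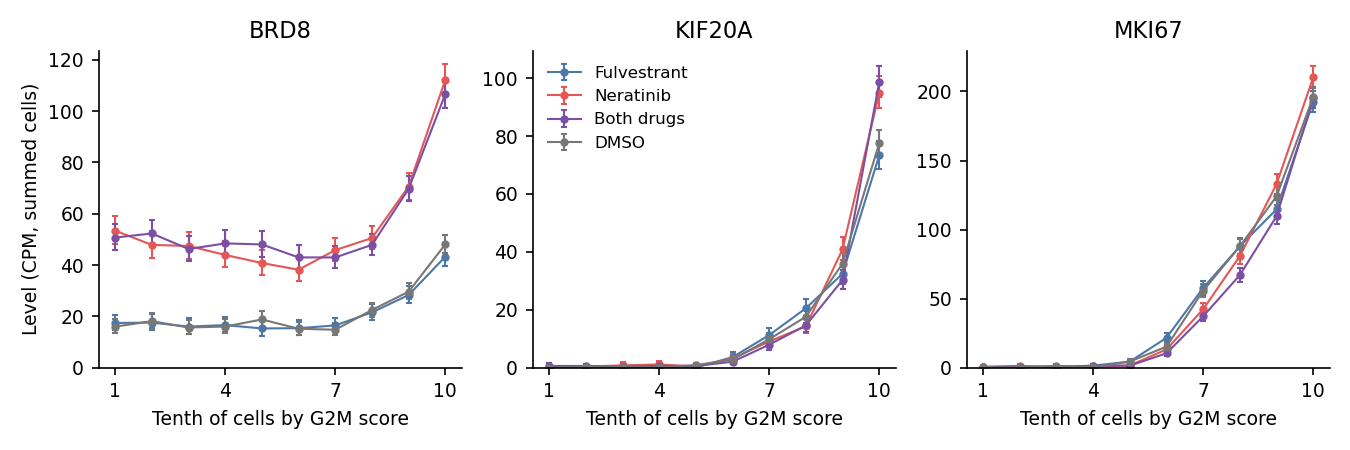
Level (CPM, vertical axis) of BRD8, of KIF20A and of MKI67, a proliferation gene of the G2M list itself, with 95% counting intervals, along 10 equal bins of cells ordered by G2M score within each library (horizontal axis, low to high). BRD8 reaches 43.3 CPM with fulvestrant, 112 with neratinib, 107 with both drugs and 48.1 with DMSO in the top bin, and KIF20A lies at no more than 1.16 CPM in the lower 5 bins.

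Within each phase neratinib made a difference of similar kind. The log2 ratio of neratinib over DMSO was 1.41 [1.29, 1.54] in G1, 1.55 [1.36, 1.73] in S and 1.17 [1.07, 1.27] in G2M. For both drugs over fulvestrant it was 1.52 [1.39, 1.65], 1.31 [1.13, 1.49] and 1.28 [1.17, 1.40] in the same order. The ratio was lower in G2M than in G1 in both pairs, by a log2 difference of -0.25 [-0.40, -0.09] in the first and -0.24 [-0.41, -0.07] in the second, and both intervals lie below 0. In CPM the step of G2M over G1 was nonetheless larger with neratinib: 16.1 [13.6, 18.7] CPM with fulvestrant, 34.1 [30.3, 38.0] with neratinib, 32.0 [28.3, 35.8] with both drugs and 18.4 [16.1, 20.7] with DMSO. Fulvestrant over DMSO was -0.04 [-0.20, 0.11] in G1, 0.20 [-0.01, 0.41] in S and -0.12 [-0.24, 0.01] in G2M. G2M cells made up 25.3%, 29.9%, 26.5% and 27.3% of fulvestrant, neratinib, both-drug and DMSO cells, and S cells made up 21.5%, 14.4%, 16.3% and 19.7%. With the phase shares of every library set to those of DMSO, the log2 ratio was 1.33 for neratinib over DMSO and 1.39 for both drugs over fulvestrant, close to the values over all cells.

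Cell to cell, BRD8 varied more than counting error gives, and the phases held much of that. The excess variance, the squared coefficient of variation left after counting error and depth, was 0.283 with fulvestrant, 0.307 with neratinib, 0.249 with both drugs and 0.414 with DMSO, where 0 is what counting error alone gives. The median over all genes of at least 20 CPM was 0.088, 0.096, 0.094 and 0.086, and 10.5%, 10.6%, 13.0% and 6.65% of genes had a larger value than BRD8. With a separate BRD8 fraction for each phase the excess was 0.133, 0.176, 0.145 and 0.185. Among G1 cells only it was 0.104, 0.120, 0.098 and -0.097. In G1 the count distribution with neratinib lay close to what counting error gives: 43.0% of cells had no BRD8 UMI against 41.8% expected, 34.2% had 1 against 35.0%, and 2.40% had at least 4 against 1.80%. With both drugs it departed a little, with 42.9% [40.8, 45.0] at no UMI against 40.8% expected and 32.3% [30.3, 34.3] at 1 against 35.1%.

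BRD8 was higher in deeper cells within G2M, while within G1 the deeper and shallower cells had overlapping intervals. With the cells of a phase split at their median UMIs, the deeper and the shallower G1 cells had 46.6 [43.8, 49.4] and 44.6 [41.3, 48.0] CPM with neratinib, and 16.8 [15.3, 18.4] and 17.8 [15.9, 19.9] CPM with DMSO. In G2M the deeper cells had 91.3 [87.1, 95.6] CPM and the shallower cells 60.5 [56.1, 65.2] with neratinib, and 38.9 [36.3, 41.5] and 29.6 [26.6, 32.8] CPM with DMSO. With fulvestrant the intervals in G2M overlapped, at 34.1 [31.3, 37.0] and 30.6 [27.2, 34.3] CPM. The part that depth plays in the G2M level was not tested.

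The mitochondrial share, which was higher in the neratinib libraries, was also set beside BRD8 with mitochondrial UMIs left out of the total. Among cells with 15% to 20% mitochondrial UMIs the BRD8 level was 25.2 [23.7, 26.8] CPM of non-mitochondrial UMIs with fulvestrant, 82.1 [78.6, 85.7] with neratinib, 83.7 [80.3, 87.2] with both drugs and 26.9 [25.5, 28.5] with DMSO. Among cells with 20% to 25% it was 23.4 [20.1, 27.1], 72.3 [69.3, 75.4], 70.9 [68.1, 73.9] and 22.5 [19.2, 26.1]. The log2 ratio of neratinib over DMSO was 1.61 [1.51, 1.71] in the first of these bins and 1.69 [1.46, 1.92] in the second, and that of both drugs over fulvestrant was 1.73 [1.62, 1.84] and 1.60 [1.38, 1.83]. In these bins, which held most cells, the ratios were as large as those over all cells on the same scale, 1.42 and 1.47. In the bin of 10% to 15% they were 1.24 [1.00, 1.48] and 1.41 [1.19, 1.62], and in that of 25% to 30% they were 1.14 [0.54, 1.80] and 2.28 [1.23, 3.61]. In the bin of 15% to 20%, G2M cells made up 23.3%, 41.2%, 36.8% and 23.6% of cells with fulvestrant, neratinib, both drugs and DMSO. In that of 20% to 25% they made up 17.0%, 23.8%, 21.4% and 19.8%. The libraries set against each other in these ratios thus differed in their share of G2M cells. The part that phase plays in the ratios within a bin was not tested.

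**Figure D4:**
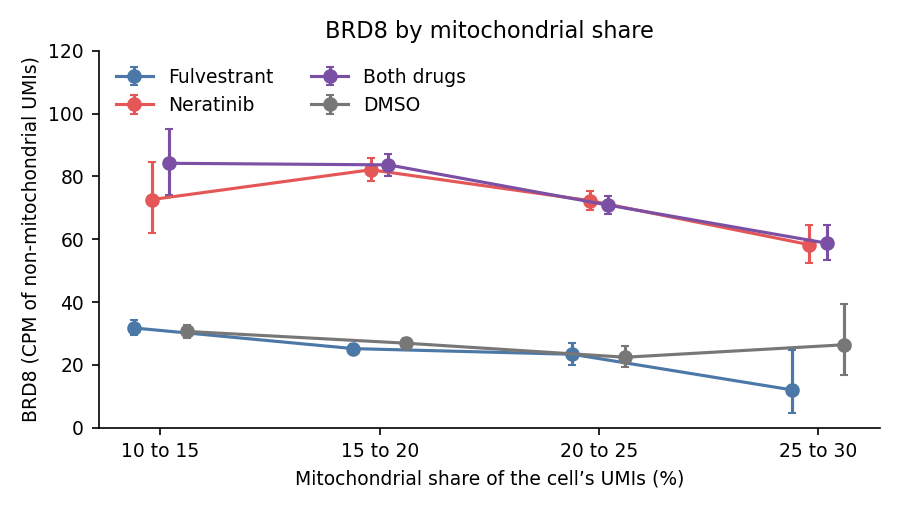
BRD8 level (CPM of non-mitochondrial UMIs, vertical axis) by the share of mitochondrial UMIs of a cell (percent, horizontal axis) in each library, with 95% counting intervals. At 15% to 20% the libraries with neratinib lie at 82.1 and 83.7, and those with fulvestrant and DMSO at 25.2 and 26.9.

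The other subunits of the TIP60 complex did not follow BRD8 as a group. Of 17 other subunits 14 reached 20 CPM, and of those 1 was at least 1.25-fold higher and 3 were lower for neratinib over DMSO, where 7.08% of all genes were higher and 30.9% lower. The median of the 14 was -0.14 and that of all genes -0.18. For both drugs over fulvestrant 1 was higher and 2 were lower (6.98% and 30.1% of all genes), and for fulvestrant over DMSO none of the 14 was either (0.222% and 0.768% of all genes). Among the 14, the subunit that was higher was MBTD1, a reader of methylated histones. It had 14.7 CPM with fulvestrant, 32.5 with neratinib, 34.7 with both drugs and 14.6 with DMSO. Its log2 ratio was 1.15 [1.06, 1.24] for neratinib over DMSO and 1.23 [1.14, 1.33] for both drugs over fulvestrant. Below 20 CPM, EPC2 was also higher, at 0.50 [0.37, 0.62] and 0.56 [0.43, 0.68] in these pairs. DMAP1 had -0.12 [-0.22, -0.02] and -0.19 [-0.29, -0.08], and ING3 had 0.05 [-0.07, 0.17] and 0.04 [-0.08, 0.16]. KAT5, the catalytic acetyltransferase, had 0.02 [-0.04, 0.07] for neratinib over DMSO. The lower subunits were RUVBL1, an ATPase, at -0.48 [-0.53, -0.44], MRGBP at -0.39 [-0.45, -0.32] and EP400, the ATPase that exchanges histone variants, at -0.33 [-0.41, -0.25].

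Along the cell cycle, 4, 5, 5 and 4 of the 14 subunits were at least 1.25-fold higher in G2M than in G1 in fulvestrant, neratinib, both-drug and DMSO cells, where 21.9%, 22.4%, 22.5% and 21.8% of all genes were. None of the 14 was lower, where 10.7%, 11.4%, 11.6% and 11.1% of all genes were. YEATS4, which reads acylated histones, had a log2 ratio of 0.91 with fulvestrant, 1.06 with neratinib, 0.98 with both drugs and 0.82 with DMSO, and ACTL6A, an actin-related subunit, had 0.71, 0.87, 0.81 and 0.73. These values are of the size seen for BRD8. Neither gene was 1.25-fold higher with neratinib, at 0.07 [0.00, 0.13] and -0.26 [-0.30, -0.22] over DMSO. MBTD1 had a G2M over G1 ratio of 0.13 [-0.06, 0.31] with fulvestrant, -0.27 [-0.39, -0.15] with neratinib, -0.20 [-0.31, -0.08] with both drugs and -0.20 [-0.36, -0.04] with DMSO, so its interval lay below 0 in 3 of the 4 libraries.

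Both ratios were also read together over all genes. Of the 4945 genes, 35 were at least 2-fold higher in both neratinib pairs, 409 were at least 1.5-fold higher in G2M than in G1 in all 4 libraries, and 1, BRD8, met both. These thresholds were set after the values of BRD8 were seen, so the count of 1 is a description and shows nothing particular to BRD8. At a mean of at least 10 CPM, 62 of 7239 genes met the first and 554 the second, and 2 met both, BRD8 and CCDC77. With 1.5-fold and 1.25-fold in place of those thresholds, 13 of the 4945 genes met both, among them the spindle gene ASPM, the spindle and hyaluronan-binding gene HMMR, the chromatin protein HMGB2, and ASXL1, ATF7IP, METTL7A and YPEL1.

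**Figure D5:**
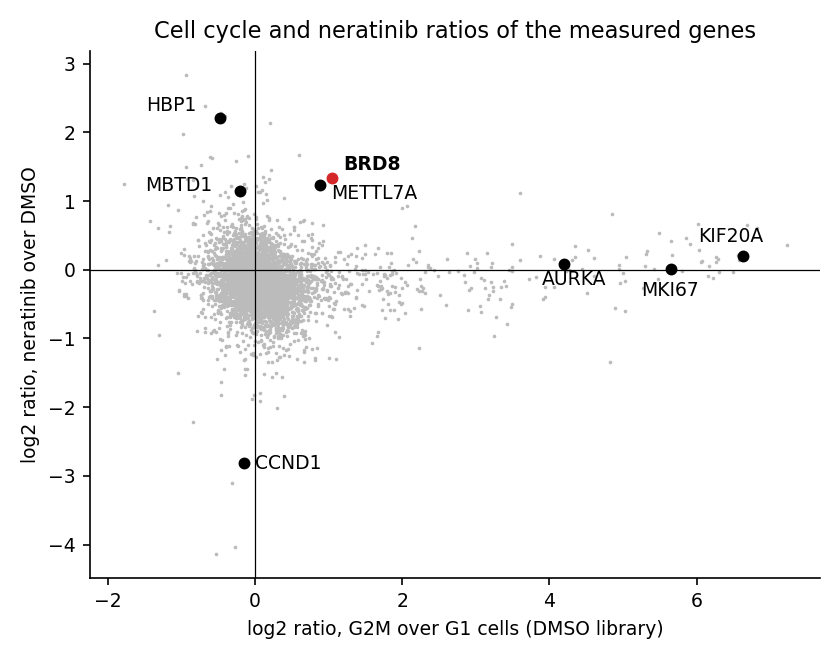
Each point is 1 of 4945 genes of at least 20 mean CPM, by log2 ratio of G2M over G1 cells in the DMSO library (horizontal axis) and log2 ratio of neratinib over DMSO (vertical axis), with BRD8 in red and other named genes in black. BRD8 lies at 1.05 and 1.34, next to METTL7A, while KIF20A lies far to the right near 0 on the vertical axis and HBP1 lies high and left of 0.

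Genes were also ranked by likeness of profile over the 12 sums of 4 libraries by 3 phases. The measure was the root mean square difference of log2 CPM, with 1 CPM added, after each gene was centred on its own mean. The nearest was METTL7A, a methyltransferase-like protein of lipid droplets, at 0.14, where the median over 4944 genes was 0.867. METTL7A had 15.9 CPM with fulvestrant, 37.4 with neratinib, 35.7 with both drugs and 16.0 with DMSO. The log2 ratio of METTL7A was 1.23 for neratinib over DMSO, and its G2M over G1 ratio was 0.49 with neratinib and 0.89 with DMSO. YPEL1 followed at 0.23, then BTG1, an antiproliferative gene, at 0.34, ZBTB44 at 0.36, ASXL1 at 0.37 and ATF7IP at 0.38. Next were GLUL (glutamine synthetase) at 0.39, CTDSP2 at 0.39, HNMT (histamine N-methyltransferase) at 0.40 and MED30, a Mediator subunit, at 0.40. Several of these genes lacked the G2M level of BRD8. In DMSO, G2M over G1 was 0.13 for BTG1, 0.11 for ZBTB44, -0.10 for GLUL, 0.06 for CTDSP2 and 0.09 for HNMT. BRD8 had 1.05 there. ASXL1, ATF7IP and MED30 had 0.77, 0.61 and 0.65. Their neratinib over DMSO ratios were 0.68, 0.70 and 0.70, where BRD8 had 1.34. Of those 10 genes, 7 had a RefSeq promoter window, and CCAAT occurred in 3 of them, TTTGAA in 3, TTTAAA in 0 and GTAAACA in 1, where 34.6%, 15.2%, 12.2% and 3.42% of all windows hold these motifs. KIF20A, the divergent neighbour of BRD8, ranked 4907 with a difference of 1.85.

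Within a library, the genes that varied with BRD8 from cell to cell were those of G2 and mitosis. Correlations were taken over the cells of each library on residuals after depth, and are a description across 3485, 3507, 3876 and 4301 cells, without a test. AURKA, a mitotic kinase, had the highest mean, with r of 0.31 with fulvestrant, 0.39 with neratinib, 0.37 with both drugs and 0.33 with DMSO. HMMR, TPX2 (the activator of AURKA), CENPF (a kinetochore protein) and ASPM followed at a mean of 0.33, then UBE2C, TOP2A, CENPE, CKS2 and CENPA at 0.31. ASPM was the only 1 of these 10 that was not in the G2M list used for calling phase. All 47 measured genes of the G2M list had a positive r in all 4 libraries, with a median of 0.228, 0.298, 0.280 and 0.250, where 43.9% of all 4944 genes did and their median was 0.012, 0.014, 0.017 and 0.011. The lowest were ribosomal protein genes, RPL37 at a mean of -0.13 and RPL19 at -0.12, followed by RPS19, RPS18 and RPL30.

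AURKA was taken because its mean r with BRD8 was the highest in these same cells. Its levels in cells with and without a BRD8 UMI therefore restate that correlation. After thinning to 10000 UMIs, AURKA had 303 CPM in cells with a BRD8 UMI and 169 in cells without with fulvestrant, 309 and 169 with neratinib, 286 and 160 with both drugs, and 335 and 185 with DMSO. Within G2M the gap remained, at 760 and 565 CPM, 769 and 506, 724 and 527, and 751 and 610 in the same order of libraries. Within G1 cells it was small, at 37.1 and 31.5 CPM, 42.0 and 40.7, 42.0 and 43.8, and 35.1 and 38.5. KIF20A had an r of 0.25, 0.31, 0.31 and 0.26 with BRD8 over all cells, and of -0.03, -0.02, -0.01 and 0.03 in G1 cells.

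Once the phase scores, the mitochondrial share and depth were regressed out, the correlations were weak. The highest mean was 0.11, for MALAT1, a nuclear noncoding RNA, and for AURKA, followed by HMMR and AKAP9, a scaffold protein of centrosome and Golgi, at 0.09, and then ASPM, GOLGB1, BPTF, BCLAF1, PNISR and NCL. The lowest was PPP1R14B at -0.09, followed by H2AFZ, the histone variant H2A.Z, and FTH1, PTMA and HMGB1. In G1 cells alone GOLGB1 had the highest mean, 0.08, followed by AKAP9, NCL and UBR2. In sparse counts correlations of this size are no finding, and they are given as a description.

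Lists of FOXO targets and of ERK output, the arms below the HER2 family kinases, were read beside BRD8. The lists were chosen with earlier results of these data known, so their counts are a description only. Of 18 measured FOXO targets, the genes that FOXO factors raise when AKT is inactive, 14 were higher and 2 lower for neratinib over DMSO, where 7.08% of all genes were higher and 30.9% lower. The median log2 ratio of the 18 was 0.76 and that of all genes -0.18. Among the 18, TNFSF10, a death receptor ligand, had the highest log2 ratio, 2.84. Of the FOXO targets below 20 CPM, IRS2 had 3.09, FOXO4 had 2.63 [2.01, 3.29] and PIK3IP1 had 2.24, where BRD8 had 1.34. The FOXO4 value rests on 26 UMIs with DMSO and 130 with neratinib. For both drugs over fulvestrant FOXO4 had 1.34 [0.84, 1.87], IRS2 had 3.41 and PIK3IP1 had 2.13. Of 7 measured genes of ERK output none was higher and 7 were lower, where 30.9% of all genes were lower, with a median of -2.80. Among them were FOS at -4.13, EGR1 at -4.04 and the cyclin CCND1 at -2.80. In G2M against G1 in DMSO cells, 1 of the 18 FOXO targets was higher and 10 were lower, where 21.8% of all genes were higher and 11.1% lower. HBP1, a FOXO target that restrains proliferation, was also higher in the neratinib libraries, with 29.5 CPM with fulvestrant, 124 with neratinib, 125 with both drugs and 26.8 with DMSO. Its r with BRD8 across cells was 0.02, 0.04, 0.06 and 0.05 in that order, and that of CCND1 was -0.03, -0.02, -0.02 and -0.05.

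G1 cells were then put in 3 equal parts by the share of their UMIs from the FOXO list. In the lowest, middle and highest part the BRD8 level in CPM of non-mitochondrial UMIs was 51.7 [47.5, 56.2], 61.7 and 63.9 [58.9, 69.2] with neratinib, and 58.5, 61.2 and 65.5 with both drugs. It was 18.6, 20.6 and 21.9 with fulvestrant and 20.7, 18.6 and 23.2 with DMSO. The intervals of the highest and the lowest part did not overlap with neratinib. They overlapped with both drugs, at [60.7, 70.7] and [54.3, 63.0], and also with fulvestrant and with DMSO. Cells of the highest part were shallower in each library, with a median of 19097.5 UMIs against 20520.5 in the lowest part with neratinib. By the ERK list the parts were at 58.9, 57.2 and 60.5 with neratinib, 65.9, 58.7 and 60.5 with both drugs, 19.6, 22.9 and 18.2 with fulvestrant and 21.8, 20.2 and 20.2 with DMSO, with no common order.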

How the data were processed

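Libraries were made with a 10x Genomics 3' v3 kit, per the labels' protocols, and the authors processed the reads with Cell Ranger 3.1.0 against hg19, per the submitters' processing notes. The deposited values are whole-number UMI counts of 33538 genes per barcode, unfiltered, with 6794880 barcodes per library. Cells were assigned to libraries by the number at the end of a barcode, read as the number in front of a sample title; no other label gives this link. BRD8 and the gene lists were chosen with earlier results of these data known.

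Counts were summed over cells and scaled to CPM, so a sum in 1 library against another depends on that library's total. Cells held 82967775 to 102504452 UMIs per library. Ratios have exact conditional binomial intervals, levels exact Poisson and shares exact Clopper-Pearson intervals, all at 95% and for counting error only. No mitochondrial ceiling was set, because it removes 62.4% of neratinib cells and 14.6% of DMSO cells. No doublet caller was run. Phase was scored with scanpy 1.11.5 on 42 S and 52 G2M genes. Ranks and the background use 4945 genes of at least 20 mean CPM. Correlations used residuals of a Poisson model with overdispersion. Most genes were named by a fixed rule: BRD8, CCND1, HBP1, MKI67, the TIP60 subunits and chromosome 5 neighbours, and the 10 nearest profiles. The rule also took the 10 highest and 5 lowest correlations, and up to 4 FOXO and 4 ERK genes of largest neratinib over DMSO ratio. SPRY4 at -5.96 and EPHA2 at -3.37 belong to those ERK genes but lie below 20 CPM and were not named above. Some genes, such as CCDC77 and HMGB2, were named outside the rule. The calculation was tested on simulated counts. Alternatives covered thresholds, scaling, depth, phase scoring and the mitochondrial share. Protein sequences were not used here.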

Additional observations from a re-analysis of the deposited data

Results flagged for a closer look

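BRD8 was read in data outside the cells, in barcodes with at most 100 UMIs, too few to count as cells. There it made up 68.3 [60.5, 76.9] CPM with neratinib and 61.2 [54.6, 68.3] CPM with both drugs, against 23.3 [19.3, 27.9] CPM with DMSO. Both lie above the level in the vehicle library, which is what flagged them. With fulvestrant it made up 29.8 CPM. These sums rest on 135 BRD8 UMIs with fulvestrant, 274 with neratinib, 316 with both drugs and 119 with DMSO. Both libraries with neratinib were thus the high ones in near-empty barcodes, as they were in cells. The cause was not tested.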

How the results depend on the processing

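No paired analysis was possible because each group was 1 library, and no replicate could be left out. Of 85 alternative values, 63 stayed within the counting interval of their result or within 1.5 times of a count, 22 moved by more and 0 reversed. With at most 20% mitochondrial UMIs the log2 ratio was 1.48 for neratinib over DMSO, 1.58 for both drugs over fulvestrant and 1.52 for both drugs over DMSO. With median-of-ratios size factors these were 1.52, 1.57 and 1.51, and over non-mitochondrial UMIs neratinib over DMSO was 1.42 and both drugs over DMSO 1.42. Shares of cells with BRD8 thinned to 10000 UMIs were 18.4% with fulvestrant, 40.8% with neratinib, 40.0% with both drugs and 20.2% with DMSO, which follows from the greater depth. Under the mitochondrial ceiling the shares thinned to 5000 UMIs were 24.9% with neratinib and 28.4% with both drugs, against 22.8% and 24.6% without it, and G2M over G1 with both drugs was 0.83. Phase scores without control genes gave G2M over G1 of 1.22 with fulvestrant, 1.14 with neratinib, 1.03 with both drugs and 1.23 with DMSO. Of the 10 genes most correlated with BRD8, 3 remained among the top 10 after the phase scores and mitochondrial share were regressed out and 0 in G1 cells alone. Of the 10 nearest profiles, 3 remained with 4 library sums in place of 12. The cause of these shifts was not tested beyond what each alternative changes. A single library per group limits every ratio to these libraries. Alternatives on barcodes shared between libraries, on phase shares and on the 5% deepest cells were chosen after seeing the data.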

Other observations

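Other genes near BRD8 on chromosome 5 were read in the same libraries. CDC25C, the phosphatase that activates CDK1 at mitotic entry, was also higher in the neratinib libraries, at a low level: 7.81 CPM with fulvestrant, 15.3 with neratinib, 14.4 with both drugs and 7.43 with DMSO. Its log2 ratio was 1.04 [0.91, 1.17] for neratinib over DMSO and 0.88 [0.75, 1.02] for both drugs over fulvestrant. CDC25C belongs to the G2M list that called the phases, so its phase levels are no result. KIF20A had log2 ratios of 0.20 [0.11, 0.30] and 0.20 [0.10, 0.30] in those pairs. CDC23, a subunit of the anaphase-promoting complex, had -0.12 [-0.22, -0.02] and -0.14 [-0.25, -0.04]. FAM53C was higher in both pairs, at 0.32 [0.22, 0.41] and 0.48 [0.37, 0.58]. KDM3B had 0.02 [-0.06, 0.09] and 0.04 [-0.04, 0.12]. GFRA3 had 2.46 [1.71, 3.28] and 1.75 [1.13, 2.42], on 18 UMIs with DMSO and 27 with fulvestrant. NME5 had 0 UMIs with fulvestrant and with DMSO, 7 with neratinib and 12 with both drugs. REEP2 had -0.37 [-1.16, 0.38] and -0.12 [-0.92, 0.67]. EGR1, an immediate early transcription factor, had 69.6 CPM with fulvestrant, 3.75 with neratinib, 4.17 with both drugs and 61.5 with DMSO, and log2 ratios of -4.04 [-4.21, -3.87] and -4.06 [-4.21, -3.91].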
